A study of Mus musculus with 30 samples.

Results

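The regions described here are 695 binding sites of Menin at a gene boundary, that is a start or an end, that no called UTX peak overlapped. They were taken from the 11195 Menin peaks of leukaemia cells kept in DMSO. They were selected on the called Menin and UTX peaks themselves, that is, on measured values. A peak was kept if it lay on chromosomes 1 to 19 and its summit, the point of highest signal, was within 1 kb of a start or end of exactly 1 protein-coding gene. It also had to share no base with any of the 14231 UTX peaks of cells given MI-503. Of 10982 Menin peaks on those chromosomes, 4979 met the condition on the gene, and 695 of these, 14.0% (95% exact binomial interval 13.0 to 15.0%), also met the condition on UTX. The other 4284 overlapped a UTX peak and serve as the comparison. Over all Menin peaks, wherever they lay, 33.5% shared no base with UTX.

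The study profiled chromatin in cultured mouse acute myeloid leukaemia cells named WT-MA9, which carry the MLL-AF9 fusion on a stably expressed pMSCV-MLL-AF9-GFP vector. Both treatments were given in medium with IL3, IL6 and SCF, and cells were collected on day 4 of DMSO, the vehicle, or of MI-503, an inhibitor of the contact between Menin and MLL. No concentration of MI-503 is stated in the labels. All groups therefore carry the fusion, and each of the 4 conditions used here (Menin or UTX, in DMSO or in MI-503) is 1 library of the same cells, so no difference between conditions has a replicate check. The Menin list comes from DMSO and the UTX list from MI-503, so antibody and treatment cannot be told apart where the lists are compared, and "without UTX" means that no UTX peak was called, with no measure of UTX signal below the caller's threshold. Peak lists hold no expression values, so the labelled cell type was not checked.

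Menin is a scaffold protein that joins the histone methyltransferases MLL1 and MLL2, and also MLL fusion proteins, to chromatin. UTX, the product of Kdm6a, removes methyl groups from lysine 27 of histone H3 and belongs to the complexes built on MLL3 and MLL4. NF-Y is a transcription factor that recognises the sequence CCAAT, which is common in promoters a short way before the start, and SP and KLF factors recognise the GC box, GGGCGG.

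Promoter sequence was not used to choose the regions. The sequences below are RefSeq bases before the start (build GRCm38.p6, written in the direction of the gene), with CCAAT and GC boxes of either strand in capitals. The first 4 are promoters of Menin peaks without UTX, the highest by the authors' q-value for which the summit lay in the printed bases. They are chr1:89070165-89070332 (forward strand), chr11:61762099-61762338 (reverse), chr12:41023840-41024060 (forward) and chr11:88718307-88718527 (reverse). Mtmr12 (chr15:12204778-12204969, forward) and Bcl10 (chr3:145924012-145924261, forward) are the highest UTX-overlapped peaks with at least 2 CCAAT motifs in those bases, chosen after their sequences were seen, to show the pattern that was less common without UTX.
Sh3bp4: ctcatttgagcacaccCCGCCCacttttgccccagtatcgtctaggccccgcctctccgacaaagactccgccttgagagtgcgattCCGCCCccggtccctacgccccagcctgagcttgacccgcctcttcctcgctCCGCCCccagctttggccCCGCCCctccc
Prpsap2: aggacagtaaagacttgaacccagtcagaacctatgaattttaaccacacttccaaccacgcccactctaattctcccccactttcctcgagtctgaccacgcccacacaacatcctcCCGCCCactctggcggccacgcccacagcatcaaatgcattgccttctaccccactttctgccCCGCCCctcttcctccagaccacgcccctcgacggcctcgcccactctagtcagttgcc
Immp2l: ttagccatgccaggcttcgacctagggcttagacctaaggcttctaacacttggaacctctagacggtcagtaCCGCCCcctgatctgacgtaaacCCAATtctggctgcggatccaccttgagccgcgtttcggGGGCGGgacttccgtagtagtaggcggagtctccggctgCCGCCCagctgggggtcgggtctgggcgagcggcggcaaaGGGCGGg
Msi2: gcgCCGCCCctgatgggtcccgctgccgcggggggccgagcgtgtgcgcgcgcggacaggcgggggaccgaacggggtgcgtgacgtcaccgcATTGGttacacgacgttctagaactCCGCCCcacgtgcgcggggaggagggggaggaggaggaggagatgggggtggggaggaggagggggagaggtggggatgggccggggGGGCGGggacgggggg
Mtmr12: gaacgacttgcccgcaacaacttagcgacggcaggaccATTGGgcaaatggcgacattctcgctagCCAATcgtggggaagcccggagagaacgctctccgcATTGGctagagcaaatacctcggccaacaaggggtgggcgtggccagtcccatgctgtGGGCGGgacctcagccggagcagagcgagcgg
Bcl10: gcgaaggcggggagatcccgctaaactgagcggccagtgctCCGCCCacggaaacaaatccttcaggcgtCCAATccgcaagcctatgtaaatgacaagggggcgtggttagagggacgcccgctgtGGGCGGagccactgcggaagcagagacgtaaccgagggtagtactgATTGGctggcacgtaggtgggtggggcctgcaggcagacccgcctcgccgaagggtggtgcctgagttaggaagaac

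Sh3bp4 and Prpsap2 had no CCAAT in the printed bases, and Immp2l and Msi2 had 1 each. The GC boxes numbered 4 at Sh3bp4, 2 at Prpsap2, 4 at Immp2l and 3 at Msi2. Mtmr12 held 3 CCAAT motifs and Bcl10 held 2.

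The strength of Menin binding was part of how the peaks were called and separated from UTX, so it is given as a description. The fold enrichment, the authors' value of summit signal over local background, had a median of 4.93 at the 695 sites (quartiles 4.22 and 6.45, range 2.42 to 37.0). At the 4284 UTX-overlapped sites the median was 7.47 (quartiles 5.39 and 11.1, range 2.35 to 46.2), so the median without UTX was 0.659 times that with UTX. The sites without UTX were also narrower, with a median of 222 bp against 350 bp. Their median −log10 q was 7.07 against 19.6. Pileups recovered from the deposited values gave a median of 21 fragments at the summit without UTX (range 11 to 137) and 37 with UTX. The 2 sets therefore overlapped over most of their range, with the sites without UTX crowded at its lower end.

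**Figure D1:**
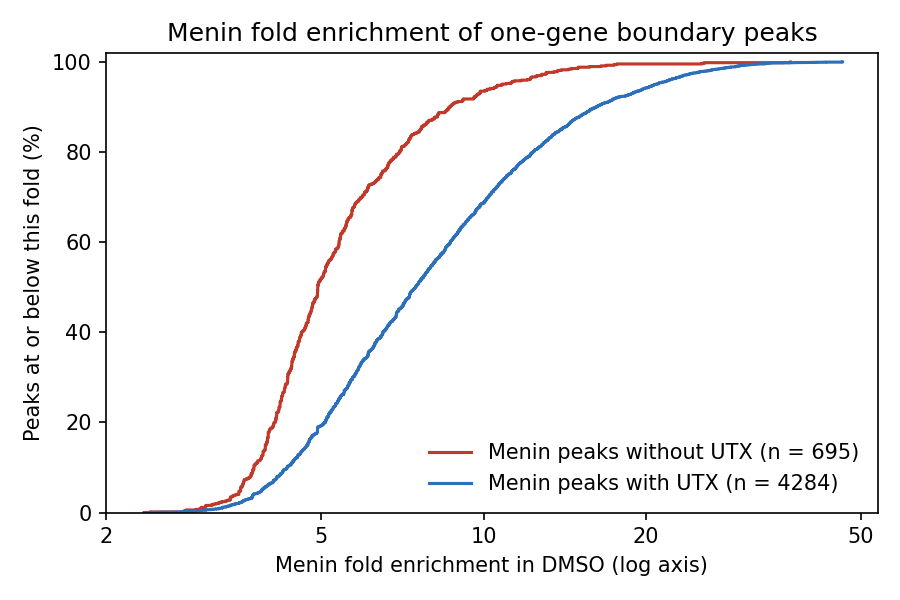
Cumulative share of one-gene boundary Menin peaks (y axis, percent) at or below each fold enrichment in DMSO (x axis, log scale), in red for the 695 peaks without UTX and in blue for the 4284 with UTX. The red curve lies to the left, with medians of 4.93 and 7.47, and both curves span about the same range.

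The share of sites without UTX fell along the rank of the Menin peaks. With the 4979 peaks cut into 10 equal parts by −log10 q, in the lowest part, 218 of 498 peaks (43.8%, interval 39.4 to 48.3%) had no UTX overlap, and in the next it was 143 of 498 (28.7%). In the middle of the list it was 54 of 498 (10.8%). In the highest part it was 6 of 498 (1.20%, interval 0.443 to 2.60%). These 6 are Mapk8, Sh3bp4, Prpsap2, Immp2l, Dok4 and Ccdc112. High Menin enrichment without a UTX peak was thus rare among boundary sites, and the few such sites are described next.

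**Figure D2:**
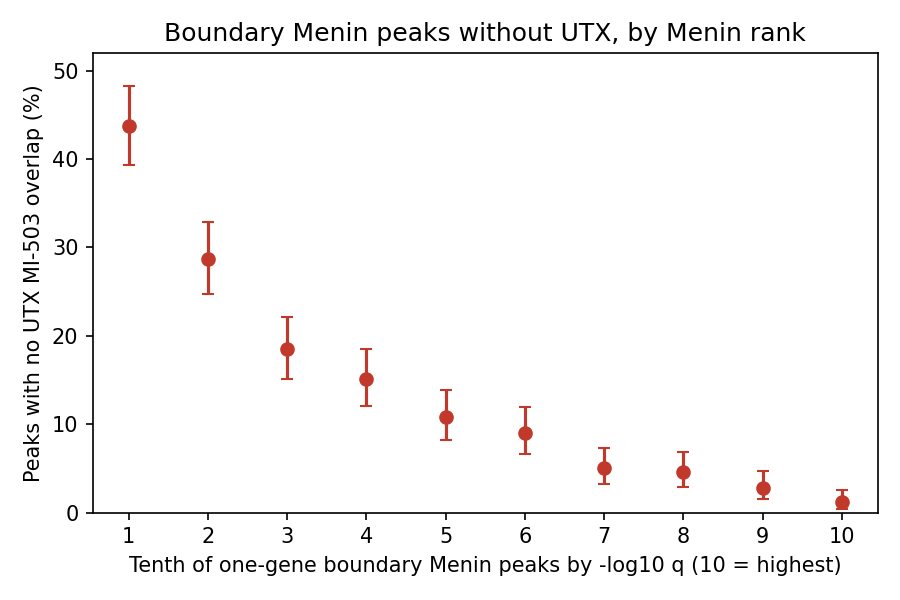
Share of one-gene boundary Menin peaks with no UTX overlap (y axis, percent) in 10 equal parts of the list by Menin −log10 q (x axis, 10 is the highest). Bars are 95% exact binomial intervals, which cover counting error only; the share falls from 43.8% to 1.20%.

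Mapk8 encodes JNK1, a stress-activated kinase that phosphorylates c-Jun. Its peak (chr14:33446965-33447607, width 643 bp, around the start of the gene) had a fold of 37.0 and a pileup of 137 fragments, the highest of the 695 on both. By −log10 q (172) it ranked 18 of the 4979 boundary peaks, and the nearest UTX peak lay 118496 bp away. Immp2l, for a subunit of the protease of the inner mitochondrial membrane, had a fold of 25.6 and a pileup of 89 fragments, and its nearest UTX peak was 577608 bp away. Prpsap2, for a protein associated with phosphoribosyl pyrophosphate synthetase, had a fold of 17.4 and 116 fragments over a local background of 5.71 fragments, 2.44 times the lowest in the list, with UTX 46815 bp away. At these 3 genes neither boundary had a UTX summit.

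Sh3bp4, for an adaptor of endocytosis, was a different case. Its peak had a fold of 25.3 and was the widest of all at 715 bp, and a UTX peak of fold 6.02 began 131 bp from its edge. Optn, for the autophagy receptor optineurin (fold 16.5, UTX 107 bp away), Dock9, for an exchange factor of the GTPase Cdc42 (fold 14.9, UTX 101 bp away), and Plekho2 (fold 12.8, UTX 104 bp away) were of the same kind. These 4 are the only ones among the 20 highest sites with UTX within 1 kb, and the other 16 had it more than 10 kb away.

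Among those 16, Msi2, for an RNA-binding protein that controls translation in blood stem cells, had a fold of 15.7 with UTX 129670 bp away. Dot1l, the methyltransferase of lysine 79 of histone H3, had a fold of 13.5, a pileup of 55 fragments and UTX 12309 bp away. Mia3 (fold 13.1), for a protein that loads collagen into vesicles, and Rab43 (fold 10.3), for a small GTPase of membrane traffic, had UTX at 18853 and 26431 bp. Frmd6 (14.6), Pgbd5 (14.4), Atp8b3 (13.7), Prrc1 (13.7), Xylt2 (13.0) and Pdcl (10.1) completed this group with Dok4 (17.6), Ccdc112 (16.9) and Ntan1 (15.0). Ahsa2 (663 bp) and Brd3os (644 bp), beside Sh3bp4, Mapk8 and Prpsap2 (639 bp), were the widest sites.

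At the other end of the list, the 5 sites of lowest −log10 q were at Olfr656 (fold 3.60), Dtx4 (3.60), Slc25a3 (3.15), Gpt2 (2.79) and Hoxa3 (3.05). Their pileups were 11 to 20 fragments, at the lower end of the range over all 695. A local background of at least 3 times the lowest in the list was found at 15 of 695 sites (2.16%) against 201 of 4284 (4.69%) with UTX, and at 4.34% of the 4979 overall. Raised background was therefore no more common at the sites without UTX.

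Distance to the nearest UTX peak split the sites into a near and a far group. The median distance was 17629 bp (quartiles 1174 and 49783 bp, range 1 to 1325275 bp). UTX lay within 1 kb of 171 sites (24.6%, interval 21.4 to 28.0%), 60 of them within 100 bp, and 1 to 10 kb from 100 sites (14.4%). At 424 sites (61.0%, interval 57.3 to 64.7%) it was more than 10 kb away, and at 97 more than 100 kb. At the limit of the choice, Spg7 was 1 bp from UTX, Fndc3b 2 bp, and Ppara and Arfip1 4 bp, all counted as without UTX. Papolg (4 bp shared), Dhx15 (5 bp) and Mrpl23 (5 bp) were the smallest overlaps counted as with UTX. The list thus joins Menin peaks that lie right beside a UTX peak with others remote from any.

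**Figure D3:**
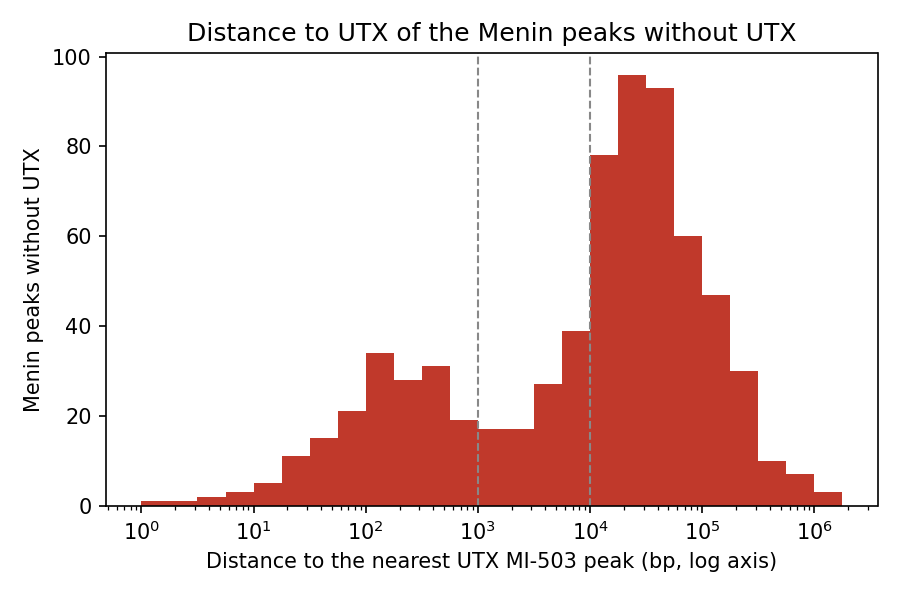
Number of the 695 Menin peaks without UTX (y axis) by distance to the nearest UTX peak (x axis, bp, log scale). Dashed lines mark 1 and 10 kb; 171 sites lie below the first and 424 above the second.

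At the 171 near sites the flanking UTX peaks were of ordinary strength, with a median fold of 6.81 (range 4.04 to 31.4) beside 7.11 over all UTX peaks. In 81 of the 171 (47.4%) another Menin peak overlapped that UTX peak, so the site was 1 of several neighbouring Menin peaks. Of the 138 near sites with a known strand, UTX lay downstream of the Menin summit in 76 (55.1%, interval 46.4 to 63.5%), an interval that includes equal shares on each side. The near and far sites had similar Menin enrichment, with median folds of 4.80 and 5.13, whose intervals (4.66 to 5.05 and 4.93 to 5.40) overlapped.

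The 695 sites belonged to 663 genes, which is 14.3% of the 4650 genes with a one-gene boundary Menin peak and 3.21% of 20665 protein-coding genes. At 469 of the 663 (70.7%, interval 67.1 to 74.2%) no UTX summit was within 1 kb of either boundary. At 108 (16.3%) another Menin peak within 1 kb of a boundary of the gene was overlapped by UTX. That peak could also lie near another gene, so not all of these genes need belong to the comparison set. Svip, Sik2, Tmem221 and Zfp180 each had 2 sites and no boundary UTX summit. Sik2, for a salt-inducible kinase, had folds of 9.15 and 7.74 at summits 217 bp into the gene and 183 bp before it. Svip, for an inhibitor of endoplasmic reticulum degradation, had folds of 11.02 and 7.91, also on both sides of the start. In all, 28 genes had 2 sites and 2 genes had 3, so the sites of a gene are not independent of each other.

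None of the 695 sites was overlapped by any of the 217 UTX peaks called in DMSO, against 110 of the 4284 (2.57%, interval 2.11 to 3.09%) with UTX and 2.21% of the 4979 overall. A DMSO peak lying within a UTX peak of MI-503 could not overlap the 695 sites by the rule. The contrast may therefore follow from the choice of the sites, and no conclusion is drawn from it. The 8 Menin peaks called in MI-503 overlapped none in either set (0.00% overall). Most sites with UTX in MI-503 thus lacked a DMSO peak too.

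Sites without UTX were more often at the end of a gene. The strand was known for 544 of them, and 60 of these (11.03%, interval 8.52 to 14.0%) were near the end of the gene and not its start, against 57 of 3520 (1.62%, interval 1.23 to 2.09%) with UTX and 2.88% of the 4064 overall. The remaining 484 (89.0%) were at the start. The share at gene ends depended on the rank of the peaks and on the window: it was 10 of 189 (5.29%, interval 2.57 to 9.51%) for Menin peaks of −log10 q of at least 10, against 29 of 2660 (1.09%, interval 0.731 to 1.56%) with UTX. It was 6.87% against 1.16% with UTX peaks of −log10 q of at least 10, 7.00% against 0.969% in a window of 500 bp and 18.4% against 2.48% in a window of 3 kb. The rule left out any peak within 1 kb of a second protein-coding gene, so most starts that near a gene-end site were excluded in advance. The distances to starts are therefore given as a description only. Of the 60 at gene ends, 2 were within 1 kb of any start in the RefSeq promoter table, and the median distance to the nearest was 6547.5 bp (range 331 to 36712 bp). Aebp2, a Polycomb cofactor (fold 5.61), Fcer1g, an Fc receptor subunit of myeloid cells (4.56), Mthfd1, an enzyme of one-carbon metabolism (5.06), and Usp24, a deubiquitinase (5.40), were among them. Aebp2, Fcer1g and Mthfd1 had a UTX summit at a boundary of the gene, and Usp24 did not. The 60 sites at gene ends had a median fold of 4.63, and 34 of them were over 10 kb from UTX.

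Where the site was at the start, the summits were spread more widely. Their positions were not compared at similar Menin rank, and the median −log10 q was 7.07 without UTX and 19.6 with it over all sites. The summit was within 100 bp of the start at 207 of 484 sites without UTX (42.8%, interval 38.3 to 47.3%) and at 2078 of 3463 with UTX (60.01%, interval 58.4 to 61.6%). It was within 250 bp at 69.0% and 83.0%. The summit was inside the gene at 48.3% (interval 43.8 to 52.9%) against 39.6% (interval 38.0 to 41.3%). Median gene lengths were close, 23655 bp without UTX and 23002.5 bp with it.

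**Figure D4:**
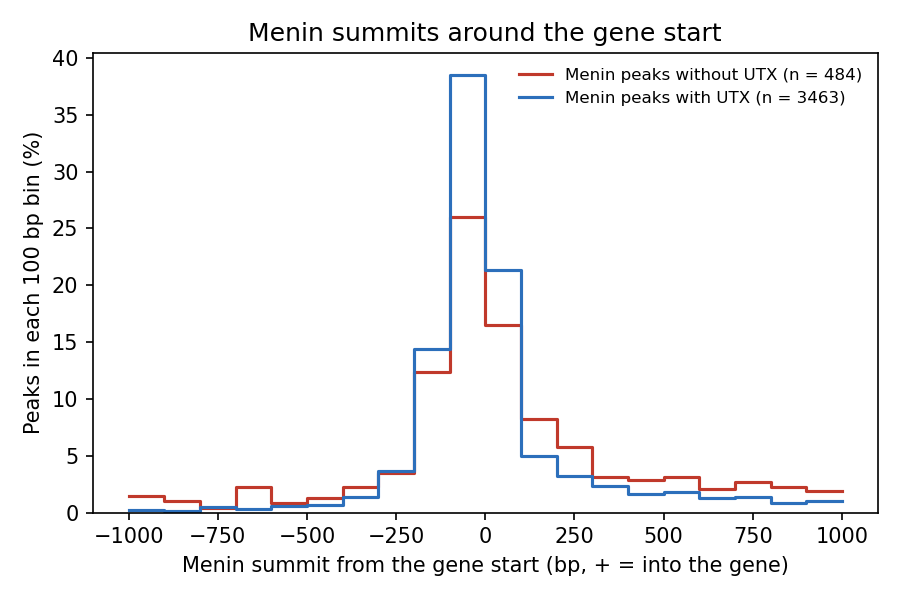
Share of Menin summits (y axis, percent in 100 bp bins) by position from the gene start (x axis, bp, positive into the gene) for the 484 peaks without UTX (red) and the 3463 with UTX (blue) at starts of known strand. Both peak in the 100 bp before the start; the red line is lower there and higher further into the gene.

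Promoter composition was read from the RefSeq promoter table, which gives 250 bases before and 50 after a start. A start of the same gene within 1 kb of the summit was found for 65.6% of the 695 sites and for 3389 of the 4284 with UTX (79.1%), so what follows holds for those. GC content had the same median, 62.7% in both sets, but a wider spread without UTX (quartiles 55.0 and 70.7%) than with it (57.7 and 68.0%). The ratio of observed to expected CpG had a median of 0.758 without UTX, 0.827 with it and 0.384 over all 32851 promoters of the table. A ratio under 0.4, the mark of a CpG-poor promoter, was found at 56 promoters without UTX (12.3%, interval 9.41 to 15.6%) and 89 of 3389 (2.63%, interval 2.11 to 3.22%). Most sites of both sets were thus at CpG-rich promoters, with a larger CpG-poor part where UTX was not called. The part of Menin rank in this difference was not tested.

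A CCAAT motif on either strand was present in 136 promoters without UTX (29.8%, interval 25.7 to 34.3%), in 1585 of 3389 with UTX (46.8%, interval 45.1 to 48.5%) and in 37.4% of all promoters. Among promoters of protein-coding genes the share was 38.2%. At least 2 were present in 8.55% and 22.1% of the first 2 sets. The deficit was largest where CCAAT is usually found. In the bin from 100 to 51 bases before the start, 7.89% (interval 5.59 to 10.8%) of promoters without UTX had the motif, against 21.6% (interval 20.2 to 23.0%) with UTX and 12.5% of all. With UTX the motif rose to a peak in that bin, and without UTX the shares in the 5 bins before the start ran from 5.92% to 8.11%, with overlapping intervals.

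**Figure D5:**
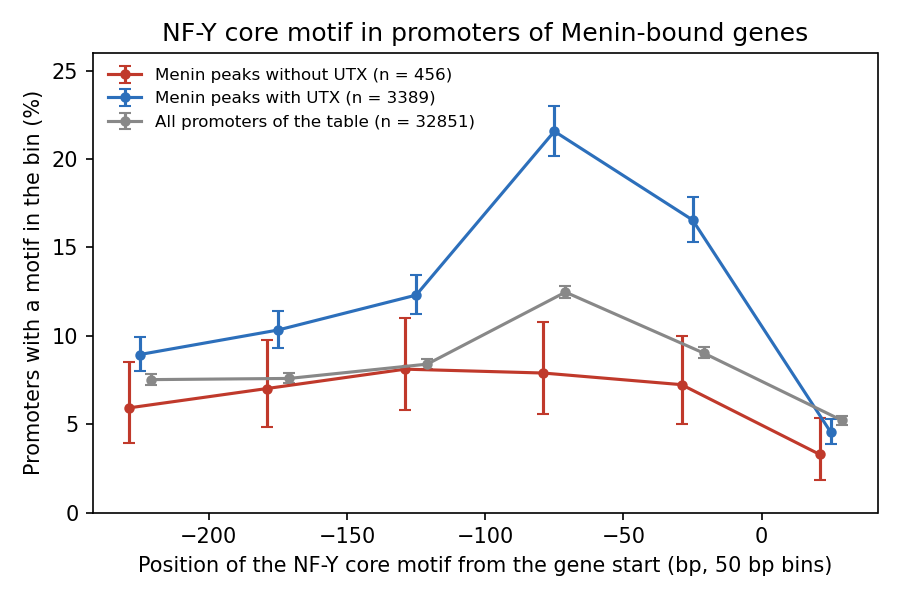
Share of promoters with the core motif of NF-Y (y axis, percent) in each 50 bp bin from the gene start (x axis, bp), for promoters of Menin peaks without UTX (red), 3389 with UTX (blue) and all 32851 promoters (grey), with 95% exact binomial intervals. The blue line reaches 21.6% in the bin from 100 to 51 bases before the start and the red line stays at 8.11% or below.

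The lower share of CCAAT was also seen among Menin peaks of similar rank and among promoters of similar base composition, though the intervals overlapped in some groups. Among peaks of −log10 q from 10 to 20 it was 29.5% (31 of 105) without UTX and 50.2% (448 of 893) with it, and from 20 to 40 it was 23.4% (11 of 47) and 51.5% (454 of 881). From 5 to 10 the shares were 34.7% and 39.2%, and below 5 they were 26.5% and 39.9%. Above 40, 4 of 17 promoters without UTX (23.5%) and 45.3% with it had the motif. The intervals overlapped in these 3 groups, which is not a test of the difference. By GC content, the shares were 28.3% and 46.0% at 60 to 70% GC and 13.6% and 36.3% above 70%, while at 50 to 60% (43.1% and 52.8%) and below 50% (38.8% and 51.3%) the intervals overlapped. With each gene counted once they were 30.05% and 46.8%. The 128 promoters with UTX within 1 kb had CCAAT in 22.7% (interval 15.7 to 30.9%) and the 285 with UTX over 10 kb away in 32.6% (interval 27.2 to 38.4%). Both shares were below that of the UTX-overlapped sites. The far interval held the 37.4% of all promoters and the 38.2% of protein-coding genes, and the near interval lay below both. Median GC content was 66.5% at the near promoters and 62.0% at the far ones, and its part in this difference was not tested.

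Other motifs were searched the same way on both strands. The GC box GGGCGG was present in 70.4% of promoters without UTX, 77.4% with UTX, 35.7% of all and 46.2% of those of protein-coding genes. Promoters with 4 or more GC boxes went the other way, with 109 promoters without UTX (23.9%, interval 20.1 to 28.1%) against 529 of 3389 with UTX (15.6%, interval 14.4 to 16.9%) and 5.49% of all. The cut of 4 was not planned, and the median was 1 box in both sets. These shares were not split by GC content, whose upper quartile was 70.7% without UTX and 68.0% with it. Lower shares without UTX were also found for the ETS site CCGGAAGT (5.92% and 10.8%), the NRF1 site GCGCANGCG (13.6% and 19.7%), the E-box CACGTG (8.11% and 13.9%) and the ZBTB33 element CTCGCGAGA (2 promoters, 0.439%, and 1.92%). Over all promoters these shares were 3.89% for ETS, 6.25% for NRF1, 7.15% for the E-box and 0.676% for ZBTB33. Among promoters of protein-coding genes they were 5.15%, 8.58%, 7.84% and 0.964%. The interval without UTX held the protein-coding share for ETS, the E-box and ZBTB33, and lay above it for NRF1. For CCAAT the interval without UTX lay below the protein-coding share, though the interval of the sites over 10 kb from UTX held that share. The intervals did not overlap for ETS (3.94 to 8.50% and 9.75 to 11.9%), NRF1 (10.6 to 17.1% and 18.4 to 21.1%), the E-box (5.78 to 11.01% and 12.7 to 15.1%) and the GC box (65.97 to 74.6% and 75.9 to 78.8%), and they did for ZBTB33. For the RUNX core TGTGGT (14.5% and 12.2%), the ZNF143 core TACANNTCC (7.24% and 6.11%), the AP-1 site TGANTCA (5.26% and 3.48%) and the TATA box TATAAA (5.04% and 5.55%) the intervals overlapped, and over all promoters the shares were 16.8%, 4.43%, 7.81% and 13.6%. They also overlapped for the rest, with 3.07% and 5.08% for the CRE TGACGTCA, 3.29% and 5.67% for the YY1 site AAGATGGC and 4.17% and 5.99% for the E2F site TTCCCGCC, beside 1.79%, 2.75% and 2.19% of all promoters. The sets were not compared at similar Menin rank for motifs other than CCAAT. A match here is a run of letters and no evidence of binding.

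The 663 genes were set beside 48 gene lists, of which 44 had a share of Menin-bound genes without UTX whose interval held the 14.3% of all genes. Among genes with an Rpl or Rps symbol, which are the ribosomal proteins and a few S6 kinases, 1 of 54 with a boundary Menin peak had a site without UTX (1.85%, interval 0.0469 to 9.89%), namely Rpl38 (fold 6.29). The Menin peaks of that list had a median −log10 q of 17.8, close to the 16.9 of all one-gene boundary peaks. Mitosis and spindle genes (0 of 18), aminoacyl-tRNA synthetases (0 of 19), genes of glycolysis and the TCA cycle (0 of 23), cholesterol synthesis (0 of 16) and antigen presentation and interferon (0 of 8) had none, each with an interval that reached 14.3%.

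In 3 lists the interval lay above 14.3%. All 6 olfactory or vomeronasal receptor genes with a boundary Menin peak had it without UTX, out of 1458 such genes, with folds of 3.60 to 8.21, the highest at Olfr593. Of 6 developmental homeobox, SOX, PAX and T-box genes with Menin, 4 were without UTX: Dlx4 (fold 4.94), Dlx2 (4.76), Foxd2 (4.36, UTX 112 bp away) and Sox8 (4.24, UTX 34 bp away). Predicted genes made up 25 of 95 (26.3%, interval 17.8 to 36.4%). The Menin peaks of the receptor list had a median −log10 q of 5.04, those of the developmental list 5.51 and those of the predicted genes 13.3, below the 16.9 of all, and sites without UTX were more common at low ranks in general. The part of rank in these counts was not tested.

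Genes of signalling and chromatin had shares near the background. Of 32 MAP kinase cascade genes with Menin, 7 had a site without UTX (21.9%, interval 9.28 to 39.97%). Mapk8, Spry1 (fold 5.40), an inhibitor of receptor signalling, and Map3k5 (4.29), the stress kinase ASK1, had no boundary UTX summit. Mapk3, which encodes ERK1 (5.06, UTX 438 bp away), Sos2 (4.53, 148 bp), Spred1 (4.18, 34 bp) and Mapk9, which encodes JNK2 (3.85, 37 bp), had UTX nearby. Mapk8 and Mapk9 thus lay far apart both in fold and in distance to UTX.

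Among genes of MLL and associated complexes 3 of 16 had such a site. Dot1l and Aff4, a scaffold of the super elongation complex (fold 7.84, UTX 49782 bp away), were far from UTX, and Kmt2c, which encodes MLL3 (8.01), had UTX 57 bp away. Polycomb genes gave 3 of 17, namely Aebp2, Ezh2, the H3K27 methyltransferase (4.80, UTX 409 bp away), and Phc1 (4.56, UTX 30875 bp away). Aebp2 and Ezh2 had a UTX summit at a boundary of the gene, and Phc1 did not. Of 14 cell cycle inhibitors and tumour suppressors with Menin, Rb1 (5.38, UTX 58864 bp away), Cdkn2a (5.39, 262 bp) and Rbl2 (4.82, 87 bp) were included.

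Hoxa3, of the HOXA cluster that MLL fusion proteins are known to activate, had a fold of 3.05 with UTX 175 bp away. Gnaq, for a G protein subunit, was the member among 5 MLL-fusion target genes (fold 7.54). Hlf (5.90) and Kit (4.27), a transcription factor and a receptor of blood stem cells, had UTX 141411 and 192377 bp away. Of 16 blood transcription factor genes with Menin, 1 had a site without UTX, namely Hlf (interval 0.158 to 30.2%). Myeloid effector genes, the list of Kit, gave 2 of 8 (interval 3.19 to 65.1%), with Fcer1g as the other member. Both intervals held the 14.3% of all genes with a one-gene boundary Menin peak. Egr1, an immediate-early transcription factor, had 2 sites (folds 5.47 and 3.52).

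The larger families were also near 14.3%. Zinc finger genes of the Zfp, Zbtb and Zkscan kind gave 24 of 131 (18.3%, interval 12.1 to 26.02%), led by Zfp746 (fold 12.2, UTX 61906 bp away) and with a median fold of 4.53 over 25 sites, 18 of them over 10 kb from UTX. Tmem genes gave 12 of 57 (21.1%, interval 11.4 to 33.9%), solute carriers 15 of 89 (16.9%), led by Slc25a20 (9.16), a carnitine carrier of mitochondria, and genes of vesicle traffic 13 of 100 (13.0%), led by Trappc10 (8.70). Genes of RAB and ARF GTPases gave 8 of 47 (17.0%), with Rab2a (9.63) and Arf5 (7.63) after Rab43. Proteasome genes gave 3 of 22, among them Psmc6 with a fold of 12.2 and UTX 9 bp away.

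The share of boundary Menin peaks without UTX depended on the thresholds of both lists. It was 31.1% when UTX peaks of −log10 q of at least 10 were used, 6.90% for Menin peaks of −log10 q of at least 10 and 8.81% for Menin peaks of fold at least 5.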

How the data were processed

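ChIP-seq peak lists of 4 libraries (Menin and UTX, each in DMSO and MI-503, 1 library per condition) were used, and 26 of the 30 libraries described were not analysed here. Peaks were called with MACS2 on mm10, per the submitters' processing notes, which give no version. Per the names of the peaks, the control for each list was an input from vehicle-treated cells. Neither the aligner nor the q threshold is given in the sources used here. The fold values are the authors' own ratio of summit pileup to local background, and the −log10 p and −log10 q values and the score of each peak are deposited as well. The deposited summit offset placed the summit. No depth is given, so absolute depth is unknown.

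Whole fragment pileups were recovered from fold and −log10 p, within 0.0001, for 10942 of 10982 Menin peaks (99.6%) and for all 695 peaks without UTX. Gene boundaries and promoters came from RefSeq (GRCm38.p6, the assembly of mm10). The strand was taken from the promoter table, which does not hold every gene. Overlap meant at least 1 shared base. Intervals are exact Clopper-Pearson at 95% and those of medians come from order statistics. They cover counting error only, since neighbouring peaks share their source. No p-value was computed, since each condition has 1 library and the choice used Menin and UTX peaks. The code (Python 3.11.15, pandas 2.3.3, SciPy 1.17.1) was tested on simulated data.

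The members and lists were chosen with earlier results of these data known. Genes named were the 20 sites of highest −log10 q, members of gene lists (up to 8 a list, or up to 4 for families chosen by symbol), the 5 widest, the 5 lowest, the 3 on each side of the overlap limit and the 5 genes with 2 or more sites of highest summed −log10 q. Predicted genes were counted and not named, 1 gene of the rule is not reported here, and genes named beyond this were chosen after their values were seen. Printed sequences are promoter bases outside the gene's outermost boundary, and none is from chromosome 18. Alternatives were other thresholds, overlap rules, windows and gene sets.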

Additional observations from a re-analysis of the deposited data

How the results depend on the processing

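Every count rests on 1 library per condition of unknown absolute depth. No paired analysis was possible because each condition has 1 library and no result comes from a test.

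The share of promoters with CCAAT among sites without UTX stayed between 27.2% and 32.7% under all 15 alternatives, within its own interval, and the share with UTX was 13.2 to 21.9 percentage points higher.

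The share of boundary Menin peaks without UTX was 13.96% and moved with most settings. With UTX peaks of −log10 q of at least 5 or 10 it was 17.3% and 31.1%, with as many UTX as Menin peaks 18.04%, and with Menin peaks of −log10 q of at least 5 or 10, or fold of at least 5, it was 11.05%, 6.90% and 8.81%. Counting UTX within 500 bp or 1 kb as overlap gave 11.01% and 10.5%, and asking for 50% of the Menin peak gave 20.1%. Windows of 500 bp and 3 kb gave 12.4% and 17.9%, and any number of genes 12.9%.

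The share of genes without a UTX boundary summit, in the same order, was 74.9% and 88.4%, 75.7%, 76.7% (−log10 q of at least 10) and 75.8% (fold), 88.5% and 92.0%, 49.2%, and 79.4% and 59.9%. The UTX distance and window settings redefine what counts as UTX at the gene. The share at the gene start was 93.1% (UTX −log10 q of at least 10), 94.7% (Menin −log10 q of at least 10), 91.8% (50% shared), 93.0% (500 bp) and 81.6% (3 kb). The ratio of median folds was 0.717, 0.810 and 0.759 for the 3 Menin thresholds and 0.706 for 50% shared. It stayed under 1 in all 14 alternatives. For the other changes the cause was not tested.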

Other observations

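Sites without UTX were found on all 19 chromosomes. Their share of the one-gene boundary Menin peaks ranged from 9.55% (17 of 178) on chromosome 19 to 17.7% (68 of 385) on chromosome 7, with intervals that overlapped (5.66 to 14.9% and 14.0 to 21.8%).

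The summit was within 1 kb of a lncRNA boundary at 68 of 695 sites without UTX (9.78%, interval 7.68 to 12.2%) and at 623 of 4284 with UTX (14.5%, interval 13.5 to 15.6%). For miRNA boundaries the counts were 1 and 38, and for tRNA boundaries 2 and 18.

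In the 100 highest peaks of each set with a promoter in the table, 43 without UTX and 36 with UTX had 4 or more GC boxes, with overlapping intervals (33.1 to 53.3% and 26.6 to 46.2%).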
